A study of Mus musculus with 6 samples.

Results

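The transporters that carry organic anions, organic cations, bile acids and drugs across kidney cells were examined in renal cortex after unilateral ischemia-reperfusion injury (UIRI), with and without bruceine A (BA), a quassinoid from Brucea javanica. Members were taken by symbol, as every row of the expression table that belongs to Slc10a, Slc17a, Slc22a, Slc47a, Slc51, Slco, or the b, c and g branches of the ATP-binding cassette (ABC) genes. This gave 71 of the 19176 rows. The libraries came from wild-type male C57BL/6J mice of 8 weeks at purchase, whose left renal pedicle was clamped for 35 minutes, whose right kidney was taken out on day 13 and whose cortex was collected on day 14. The UIRI group had 3 mice that received vehicle, and the UIRI + BA group had 3 mice that received BA into the peritoneum at 1 mg/kg each day. The library labels spell the compound brucine A. No sham kidney was analysed here, so every comparison is between injured kidneys with BA and injured kidneys without it.

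In the proximal tubule, organic solutes are taken from blood at the basolateral membrane and released into urine at the apical membrane. Slc22 carriers such as OAT1, OAT3 and OCT2 perform the uptake step, and MATE1, NPT1, NPT4 and ABC pumps such as MRP2 and BCRP perform the release step. Other members work in the opposite direction and recover urate (URAT1), carnitine (OCTN2) or bile acids (ASBT) from the filtrate. Most of these genes are expressed in mature proximal tubule cells and serve as signs of their differentiated state.

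Reads assigned to genes ran from 16510720 to 38124164 per library, and UIRI replicate 3 held 2.04 times the median of the other libraries. The deposited values are counts divided by a size factor of the library and are called normalized counts below. Changes are differences in mean log2(normalized count + 1), UIRI + BA minus UIRI, ± SE, tested with limma over all rows of the table. Genes of nephron segments found in cortex were abundant: Slc34a1 lay between 7708 and 14182 normalized counts, and the thick limb gene Umod between 13945 and 25967. Both would also be abundant in whole kidney, and cortex was not tested against medulla. Markers of urothelium, which lines the renal pelvis, were present at different levels. The mean log2 of the 8 genes measured was 4.38, 4.20 and 6.02 in UIRI replicates 1, 2 and 3, and 2.45, 2.49 and 5.30 in the UIRI + BA replicates. All 8 were lower with BA, 0 of them at an unadjusted p below 0.05, and their part in the transporter results was not tested.

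With BA, 48 transporters had higher means and 23 had lower means. The median log2 difference was 0.16 over the members and -0.01 over all rows. At an unadjusted limma p below 0.05, 22 members were higher with BA, where 5.67% of all rows were higher at that threshold, and 2 were lower, where 4.61% of all rows were lower. Of all rows, 10.3% passed in either direction. None of the 71 passed after Benjamini-Hochberg adjustment in limma, nor did any other row, and the smallest adjusted p among members was 0.225. The UIRI and UIRI + BA values did not overlap for 20 members, 16 of them higher with BA, and 4 lower, against 14.4% of all rows in either direction, 7.45% in the higher and 6.96% in the lower one. The 65 members with a mean of at least 10 normalized counts gave the same 22 and 2.

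The count of adjusted calls depended on UIRI replicate 3 and on the tool. Without UIRI replicate 3, limma called 17 members higher and 0 lower at an adjusted p below 0.05, where 5.02% of all rows were called, 3.22% higher and 1.79% lower. Leaving out any other single library gave 0 adjusted calls in the whole table. The adjusted p-values without UIRI replicate 3 given below for single members therefore rest on the only omission that gave any calls. They are not separate evidence of a difference. DESeq2 on the recovered reads of all 6 libraries called 10 members higher and 0 lower at an adjusted p below 0.05, where 1.49% of the rows given one were called, 1.14% higher and 0.349% lower, and gave no adjusted p for 18 members. edgeR's quasi-likelihood test called 0 rows after adjustment, although 1703 of 17155 rows (9.93%) passed at an unadjusted p below 0.05. Without UIRI + BA replicate 3, the 22 members that were higher at an unadjusted p became 14.

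**Figure D1:**
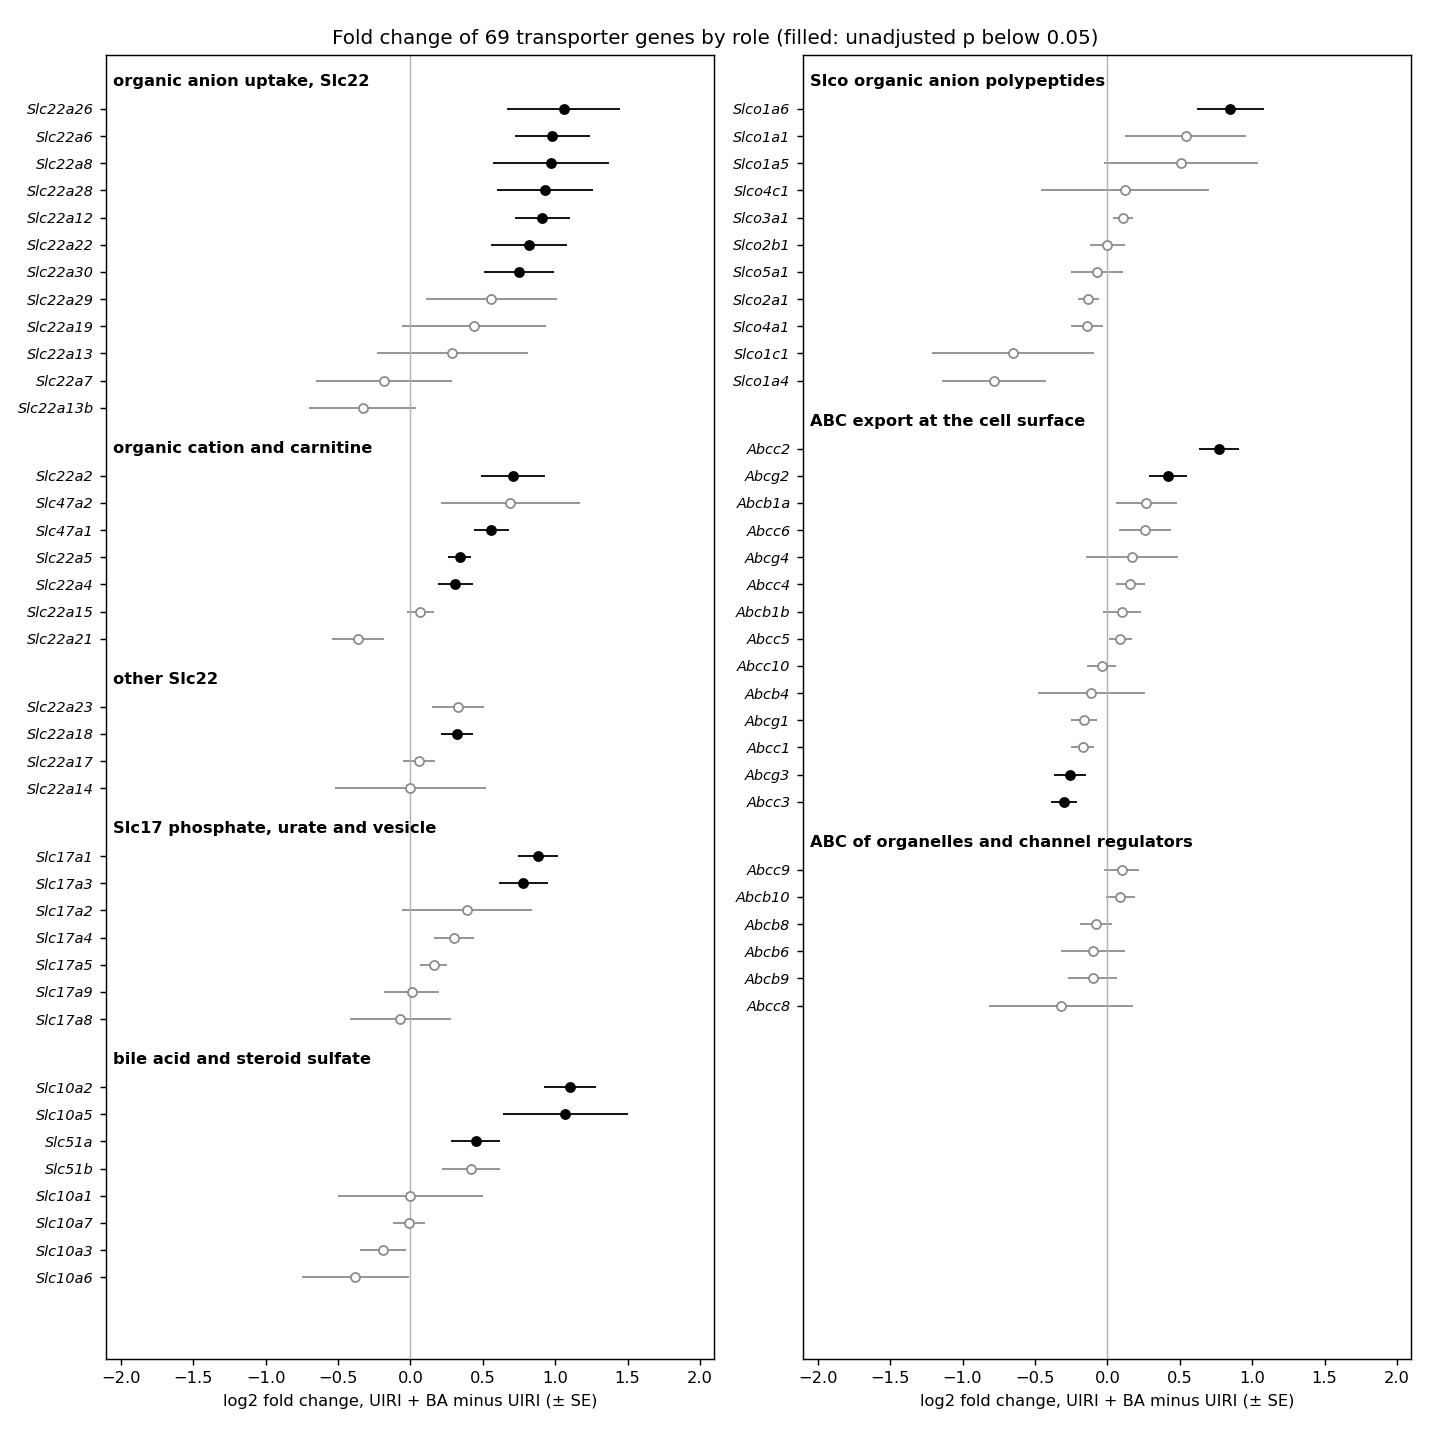
Log2 fold change (horizontal axis, UIRI + BA minus UIRI, ± SE, 3 libraries in each group) of 69 transporter genes, sorted within 8 roles, with filled points for an unadjusted limma p below 0.05. The filled points lie to the right of 0 except Abcc3 and Abcg3, and the groups of organic anion, organic cation and carnitine carriers have most of their members on the right.

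The organic anion carriers of the Slc22 family had the highest group median. Of their 12 genes, 10 were higher with BA and 7 passed at an unadjusted p below 0.05, all 7 in that direction (Slc22a6, Slc22a8, Slc22a12, Slc22a22, Slc22a26, Slc22a28 and Slc22a30), and the median log2 difference was 0.79. Slc22a6 encodes OAT1, the basolateral exchanger that draws organic anions from blood in return for dicarboxylate. It had 240, 240 and 469 normalized counts in UIRI replicates 1, 2 and 3, and 531, 524 and 752 in UIRI + BA replicates 1, 2 and 3. Every UIRI + BA library was above every UIRI library, and UIRI replicate 3 was the nearest to them. The difference was 0.98 ± 0.26 (limma adjusted p = 0.291), with an adjusted p of 0.0194 in DESeq2 and 0.00698 in limma without UIRI replicate 3.

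Slc22a8 encodes OAT3, which shares the basolateral uptake step with OAT1. Its normalized counts were 118, 58.5 and 221 in the UIRI libraries and 266, 178 and 245 in the UIRI + BA libraries. The groups overlapped, because UIRI replicate 3 exceeded UIRI + BA replicate 2. The difference was 0.97 ± 0.40 (limma adjusted p = 0.467), and it was 0.49 without UIRI replicate 2 and 1.43 without UIRI replicate 3. DESeq2 gave Slc22a8 an adjusted p of 0.705, and limma without UIRI replicate 3 gave 0.0285. Slc22a12 encodes URAT1, which reabsorbs urate from the filtrate. It had 408, 376 and 596 normalized counts with vehicle and 742, 753 and 1079 with BA. Its groups did not overlap and its difference was 0.91 ± 0.19 (limma adjusted p = 0.225), with an adjusted p of 0.00269 in DESeq2 and 0.0111 in limma without UIRI replicate 3.

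Other anion carriers of this family have a narrow or less well defined role, and the rodent genes Slc22a26, Slc22a28, Slc22a29 and Slc22a30 are close copies whose reads may have been shared between them. Slc22a22, which encodes the prostaglandin carrier OAT-PG, differed by 0.82 ± 0.26 (limma adjusted p = 0.368), and its groups overlapped by a narrow margin, at 112 in UIRI replicate 3 and 108 in UIRI + BA replicate 2. Slc22a30 differed by 0.75 (limma adjusted p = 0.379) and Slc22a28 by 0.93 (limma adjusted p = 0.425). In DESeq2 the adjusted p was 0.215 for Slc22a22, 0.127 for Slc22a30 and 0.632 for Slc22a28. In limma without UIRI replicate 3 it was 0.0188, 0.0175 and 0.00698. Slc22a26 differed by 1.06 (limma adjusted p = 0.441), but it rested on 6 to 29 reads per library.

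The remaining Slc22 anion carriers had few reads and wide errors. Slc22a7 (OAT2) ranged from 8.77 to 30.6 normalized counts over the 6 libraries and differed by -0.18 ± 0.47 (limma adjusted p = 0.902). Slc22a13 (OAT10), a carrier of urate and nicotinate, had its highest value in UIRI + BA replicate 3, at 77.2, with the other 5 libraries between 16.3 and 36.1. It differed by 0.29 ± 0.52 (limma adjusted p = 0.855), and by -0.38 without that library. The close copy Slc22a13b and the neighbouring Slc22a14 may share reads with it.

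**Figure D2:**
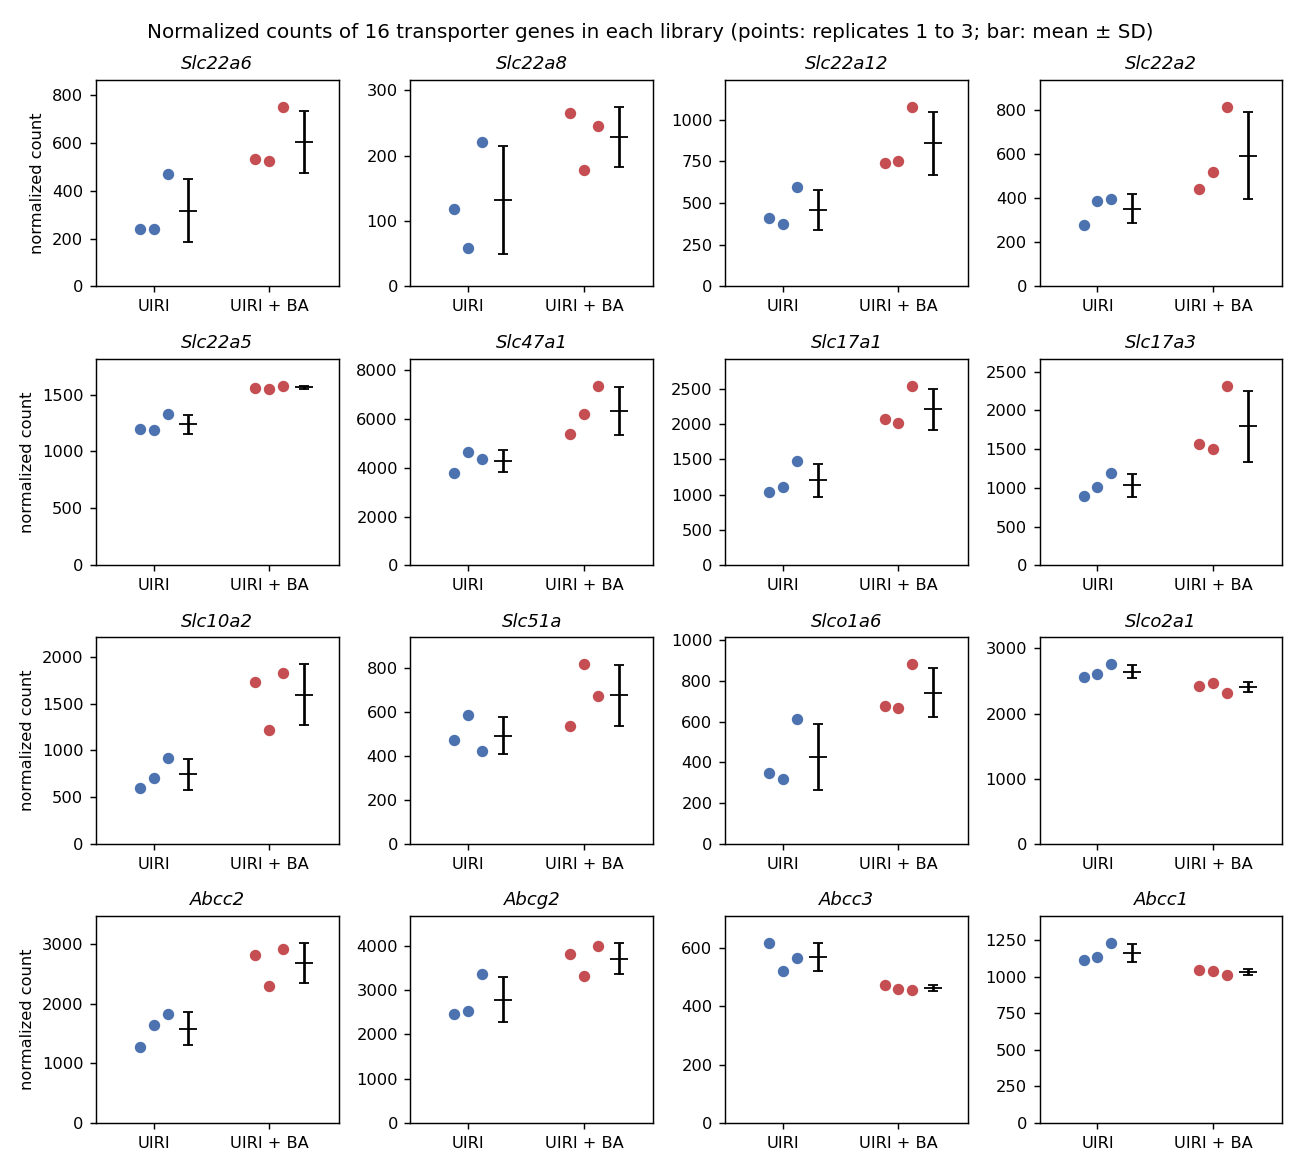
Normalized counts (vertical axes, from 0) of 16 transporter genes in each of the 3 UIRI libraries (blue) and the 3 UIRI + BA libraries (red), ordered by replicate, with the group mean ± SD in black. Slc22a6, Slc22a12, Slc17a1, Slc17a3, Slc10a2 and Abcc2 show every red point above every blue point, while Abcc3, Abcc1 and Slco2a1 show the reverse order over a narrower span.

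The sequences before the start sites of Slc22a6, Slc17a1 and Abcc2 are shown because these 3 genes stand for basolateral uptake and apical release, were higher at an unadjusted p below 0.05, and carry the letters AGTCCA, the last letters of a motif of HNF4A, a nuclear receptor whose own gene is described below. RefSeq start sites on GRCm38.p6 were found for 52 of the 71 members, with 64 promoters of 250 bases before to 50 after the start. The 250 bases before each start are given 5′ to 3′ on the gene's strand. Capitals mark AGTCCA or its reverse complement and, in Abcc2, also TGACNNNGC, the antioxidant response core.
Slc22a6, chr19:8617746-8617995, plus strand: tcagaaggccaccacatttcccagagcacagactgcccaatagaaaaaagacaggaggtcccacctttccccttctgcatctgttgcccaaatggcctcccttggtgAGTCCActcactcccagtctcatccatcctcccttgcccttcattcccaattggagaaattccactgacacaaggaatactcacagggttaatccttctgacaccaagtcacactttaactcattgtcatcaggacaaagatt
Slc17a1, chr13:23870023-23870272, plus strand: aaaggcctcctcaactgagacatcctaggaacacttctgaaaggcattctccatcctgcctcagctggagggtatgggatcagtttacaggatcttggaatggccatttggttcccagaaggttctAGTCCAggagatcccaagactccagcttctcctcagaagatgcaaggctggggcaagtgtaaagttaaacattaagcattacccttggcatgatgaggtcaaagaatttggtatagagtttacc
Abcc2, chr19:43782058-43782307, plus strand: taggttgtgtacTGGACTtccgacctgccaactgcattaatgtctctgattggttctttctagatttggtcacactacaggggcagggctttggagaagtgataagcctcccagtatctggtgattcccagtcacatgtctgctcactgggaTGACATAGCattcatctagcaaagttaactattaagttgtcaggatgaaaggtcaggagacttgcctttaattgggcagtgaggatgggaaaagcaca
The AGTCCA match began 143 bases before the start of Slc22a6, 124 before the start of Slc17a1 that is shown and 238 before that of Abcc2. Slc17a1 has another start site in the table, whose promoter at chr13:23868768-23869067 held no match. Over both strands, AGTCCA was found in 9 of the 64 member promoters (14.1%) and in 14.1% of all 32851 promoters of the same length. CAAAGTCCA, the longer HNF4A core that ends in the same letters, was found in 0 of the 64 and in 0.475% of all. TGACNNNGC was found in 8 of the 64 (12.5%) and in 12.4% of all promoters. AGTCCA also lay in promoters of Slco2b1, Abcc4 and Slc51b, which did not pass at an unadjusted p below 0.05. The members that were higher at that threshold had 22 promoters, from 18 genes, with AGTCCA in 5 (22.7%) and TGACNNNGC in 1 (4.55%). The 3 genes shown were picked from this set for holding a match.

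The carriers of organic cations and carnitine had 7 of 8 genes higher with BA, and 5 passed at an unadjusted p below 0.05. Their median log2 difference was 0.42. The mean log2 of these 8 genes was 8.59, 8.64 and 8.64 in the UIRI libraries and 8.80, 8.90 and 9.22 in the UIRI + BA libraries, without overlap.

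Slc22a2 encodes OCT2, which takes up organic cations at the basolateral membrane. It had 279, 385 and 395 normalized counts in the UIRI libraries and 441, 521 and 815 in the UIRI + BA libraries. UIRI + BA replicate 3 stood well above the rest, and the groups did not overlap. The difference was 0.71 ± 0.22 (limma adjusted p = 0.364), and no less than 0.46 with any single library left out. DESeq2 gave Slc22a2 an adjusted p of 0.0433. Slc47a1 encodes MATE1, which exchanges cations for protons at the apical membrane and so completes their secretion. Its normalized counts were 3794, 4664 and 4378 with vehicle and 5408, 6203 and 7378 with BA. These did not overlap, and the difference was 0.56 ± 0.12 (limma adjusted p = 0.240), with an adjusted p of 0.00514 in DESeq2. Slc47a2 was near the floor, with 3 to 12 reads per library.

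Carnitine is reabsorbed from the filtrate by OCTN2, the product of Slc22a5. Slc22a5 had 1193, 1189 and 1330 normalized counts in the UIRI libraries and 1558, 1549 and 1579 in the UIRI + BA libraries. Its UIRI + BA values lay close together and above all UIRI values, and the difference was 0.34 ± 0.08 (limma adjusted p = 0.249). DESeq2 gave Slc22a5 an adjusted p of 0.052, and limma without UIRI replicate 3 gave 0.0194. Slc22a4, which encodes the ergothioneine carrier OCTN1, differed by 0.31 ± 0.12 (limma adjusted p = 0.450), from 0.20 to 0.38 with single libraries left out. Slc22a21, the third gene of this locus on chromosome 11, encodes OCTN3 and differed by -0.36 ± 0.18 (limma adjusted p = 0.519). Of 7 measured genes of carnitine and cation metabolism, 6 were higher, 4 of them at an unadjusted p below 0.05. These included Cpt1a, the carnitine acyltransferase of the outer mitochondrial membrane, by 0.22 (limma adjusted p = 0.377), and Cpt2, its inner membrane partner, by 0.22 (limma adjusted p = 0.467).

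Among Slc22 genes with other roles, Slc22a18 passed at an unadjusted p below 0.05, higher by 0.32 ± 0.11 (limma adjusted p = 0.403), and its groups did not overlap. Slc22a17, whose product binds the lipocalin encoded by Lcn2, lay between 450 and 573 in the 6 libraries and differed by 0.06 ± 0.11 (limma adjusted p = 0.854). Slc22a3 was not analysed here.

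The Slc17 genes had 6 of 7 higher with BA and a median of 0.30, and their mean log2 was 7.41, 7.36 and 7.5 in the UIRI libraries against 7.73, 7.69 and 7.90 in the UIRI + BA libraries. The 2 members that passed at an unadjusted p below 0.05 encode the apical carriers NPT1 and NPT4, which release urate and other organic anions into urine. Slc17a1 (NPT1) had 1035, 1108 and 1473 normalized counts with vehicle and 2075, 2013 and 2549 with BA. The groups were well apart, and the difference of 0.88 ± 0.14 had the smallest unadjusted p of the 71 members (limma adjusted p = 0.225). Its adjusted p was 2.27e-05 in DESeq2 and 0.00408 in limma without UIRI replicate 3.

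Slc17a3 (NPT4) had 892, 1012 and 1189 normalized counts with vehicle and 1565, 1495 and 2321 with BA. Its groups did not overlap, and the difference was 0.78 ± 0.17 (limma adjusted p = 0.237), with an adjusted p of 0.00269 in DESeq2. Slc17a5, which encodes sialin, the lysosomal exporter of sialic acid, differed by 0.16 ± 0.09 (limma adjusted p = 0.557). Slc17a2, Slc17a3, Slc17a1 and Slc17a4 lie together at chr13:23806993-23915009 on GRCm38, and all 4 were higher with BA, by 0.30 to 0.88. Slc17a2 and Slc17a4 had overlapping groups and did not pass at an unadjusted p below 0.05, and Slc17a2 held only 4 to 17 reads per library. Slc17a1 and Slc17a4 face each other with 159 bases between their ends, and whether the counting used strand is not stated in the sources used here, so reads past either end may have been counted for the other.

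Of 7 measured genes of urate and purine metabolism, 2 were higher and 5 lower, 2 of these (Aox3 and Aox1) at an unadjusted p below 0.05. Aox3, an aldehyde oxidase, was lower by 1.76 on the log2 scale (limma adjusted p = 0.403), with 157, 49.5 and 89.8 normalized counts in the UIRI libraries and 16.3, 14.0 and 71 in the UIRI + BA libraries. These overlapped through UIRI + BA replicate 3. Xdh, which makes urate, differed by 0.09 (limma adjusted p = 0.817).

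Of 8 carriers of bile acids and steroid sulfates, 5 were higher, 3 of them (Slc10a2, Slc10a5 and Slc51a) at an unadjusted p below 0.05. Slc10a2 encodes ASBT, the sodium-coupled carrier that recovers bile acids at the apical membrane, and it had the largest limma difference of the 71 members, although DESeq2 placed Slc22a26 (1.19) and Slc10a5 (1.12) above it (1.09). Its normalized counts were 603, 704 and 924 in the UIRI libraries and 1730, 1220 and 1827 in the UIRI + BA libraries. The lowest UIRI + BA library was above the highest UIRI library. The difference was 1.10 ± 0.18 (limma adjusted p = 0.225), with an adjusted p of 5.81e-06 in DESeq2 and 0.00800 in limma without UIRI replicate 3, and it stayed between 0.96 and 1.28 when any single library was left out.

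OSTalpha and OSTbeta, from Slc51a and Slc51b, form the heteromer that exports bile acids and steroids at the basolateral side. Slc51a had 471, 585 and 421 normalized counts with vehicle and 537, 815 and 673 with BA, and differed by 0.45 ± 0.17 (limma adjusted p = 0.441). Slc51b had 144, 147 and 152 with vehicle and 139, 219 and 255 with BA, and differed by 0.42 ± 0.20 (limma adjusted p = 0.518), or by 0.24 without UIRI + BA replicate 3 and 0.67 without UIRI + BA replicate 1. Both overlapped through UIRI + BA replicate 1, which was within or below the UIRI range. Slc10a5, an orphan member of the family, differed by 1.07 ± 0.43 (limma adjusted p = 0.465), from 0.67 to 1.52 with single libraries left out, and had UIRI + BA values from 112 to 367. Slc10a1, which encodes the hepatocyte carrier NTCP, held 4 to 13 reads per library and differed by 0.00 ± 0.50 (limma adjusted p = 0.999).

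The Slco family, which encodes the organic anion transporting polypeptides, had no common direction. Of 11 genes, 6 were higher and 5 lower, with a median of 0.00, and 1 passed at an unadjusted p below 0.05. That gene was Slco1a6, with 348, 321 and 612 normalized counts in the UIRI libraries and 679, 669 and 881 in the UIRI + BA libraries. The groups did not overlap, though UIRI replicate 3 came close, and the difference was 0.85 ± 0.23 (limma adjusted p = 0.298). DESeq2 gave Slco1a6 an adjusted p of 0.0294. Slco1a genes resemble each other and may share reads. Slco1a4, chosen after its value was seen, had 78.2, 46.1 and 50.4 with vehicle and 20.0, 30.2 and 56.3 with BA, a difference of -0.78 ± 0.36 (limma adjusted p = 0.5) that ranged from -1.17 to -0.45 with single libraries left out.

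Slco1a1, which encodes an apical carrier of the proximal tubule, had 118, 110 and 160 normalized counts with vehicle and 99.0, 160 and 401 with BA. The high mean with BA came from UIRI + BA replicate 3, and the difference of 0.54 ± 0.42 (limma adjusted p = 0.659) was -0.02 without it. Slco4c1, a basolateral carrier, likewise had its highest value, 72, in that library and differed by 0.12 ± 0.58 (limma adjusted p = 0.951). The same library also had the highest mean log2 of the 6 markers of the S3 segment, the last part of the proximal tubule, at 9.06 against 7.61 to 8.23 in the other 5 libraries. The part of S3 content in these values was not tested.

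Slco2a1, which encodes the prostaglandin transporter PGT, showed the opposite order from the Slc22 genes at a small size. It had 2565, 2603 and 2755 normalized counts in the UIRI libraries and 2423, 2477 and 2321 in the UIRI + BA libraries. The groups did not overlap, and the difference was -0.13 ± 0.07 (limma adjusted p = 0.544). Widely expressed members had small differences, Slco2b1 by 0.00 ± 0.12 (limma adjusted p = 0.993), Slco3a1 by 0.11 ± 0.07 (limma adjusted p = 0.595) and Slco4a1 by -0.14 ± 0.11 (limma adjusted p = 0.660).

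Among 14 ABC exporters of the cell surface, 8 were higher and 6 lower, and those at an unadjusted p below 0.05 were divided, with Abcc2 and Abcg2 higher and Abcc3 and Abcg3 lower. Abcc2 encodes MRP2, the apical pump for conjugated organic anions. It had 1281, 1638 and 1820 normalized counts with vehicle and 2824, 2298 and 2922 with BA. The groups did not overlap, and the difference was 0.77 ± 0.14 (limma adjusted p = 0.225), with an adjusted p of 0.000339 in DESeq2 and 0.0117 in limma without UIRI replicate 3. Abcg2 encodes BCRP, an apical pump for urate and many drugs. Its values of 2458, 2531 and 3359 with vehicle and 3801, 3311 and 3993 with BA overlapped at UIRI replicate 3, and the difference was 0.42 ± 0.13 (limma adjusted p = 0.354). DESeq2 gave Abcg2 an adjusted p of 0.128, and limma without UIRI replicate 3 gave 0.0143.

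Abcc3 encodes MRP3, a basolateral pump. It had 616, 522 and 567 normalized counts in the UIRI libraries and 472, 458 and 455 in the UIRI + BA libraries. All 3 UIRI + BA libraries were below all 3 UIRI libraries and lay within a narrow band. The difference was -0.30 ± 0.09 (limma adjusted p = 0.368), with an adjusted p of 0.303 in DESeq2 and 0.109 in limma without UIRI replicate 3. Abcc1, which encodes the basolateral pump MRP1, had the same order, with 1119, 1137 and 1231 in the UIRI libraries and 1049, 1044 and 1011 in the UIRI + BA libraries. Its difference was -0.17 ± 0.08 (limma adjusted p = 0.494). Abcg3, a rodent relative of Abcg2 that may share its reads, differed by -0.26 ± 0.11 (limma adjusted p = 0.473).

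The other well known pumps did not pass at an unadjusted p below 0.05. Abcc4, which encodes the apical pump MRP4, differed by 0.16 ± 0.10 (limma adjusted p = 0.592) and Abcc5 by 0.09 ± 0.08 (limma adjusted p = 0.694). Abcb1a and Abcb1b, the close copies that encode the mouse P-glycoproteins, differed by 0.27 ± 0.21 (limma adjusted p = 0.652) and 0.10 ± 0.13 (limma adjusted p = 0.793). Abcg1, a cholesterol exporter, differed by -0.16 ± 0.09 (limma adjusted p = 0.567). Of the 7 ABC genes of organelles and channel regulators, 3 were higher and 4 lower, and 1 passed at an unadjusted p below 0.05.

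Levels of different genes were set side by side as normalized counts per kilobase of exon, for the 70 members with a length in GENCODE M21. Slc47a1 was highest, at 1265 ± 131 in UIRI and 1871 ± 293 in UIRI + BA (SD, n = 3 each). Slc17a1 was at 508 ± 98.9 and 933 ± 124. Slc10a2 stood at 179 ± 39.5 and 384 ± 78.5, Slc22a6 at 79.4 ± 33.3 and 151 ± 32.6, and Slc22a8 at 33.8 ± 21.0 and 58.7 ± 11.8. The lowest mean was that of Slco1c1. The 6 members with a mean below 10 normalized counts (Slc10a1, Slc17a2, Slc22a14, Slc47a2, Slco1a5 and Slco1c1) had SEs from 0.45 to 0.56 on the log2 scale.

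**Figure D3:**
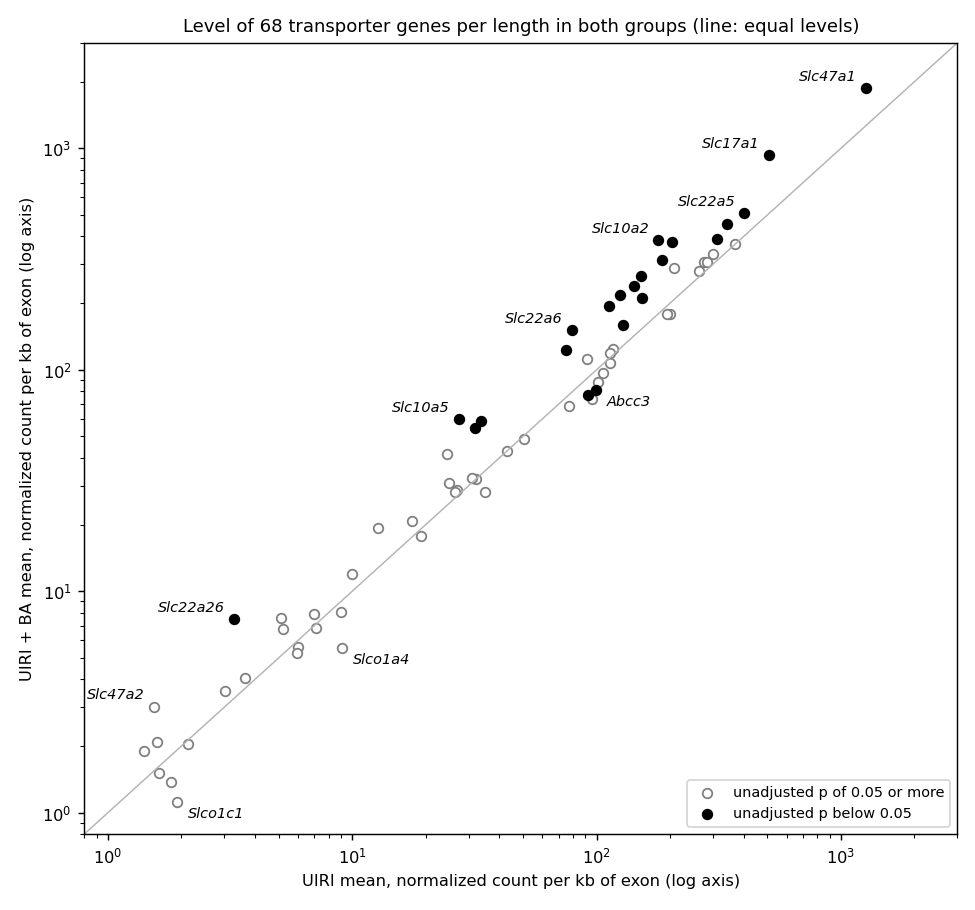
Mean normalized count per kilobase of exon in the 3 UIRI libraries (horizontal, log axis) and in the 3 UIRI + BA libraries (vertical, log axis) for 68 transporter genes, with filled points for an unadjusted limma p below 0.05 and a line of equal levels. Slc47a1 and Slc17a1 lie at the top right above the line, and the scatter around the line is widest among genes below 10 per kilobase.

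Members of the same chromosome were grouped on GRCm38 where the gap to the next member was at most 1200 kb. The groups with the most members are described here. The 8 Slc22 anion carriers at chr19:6535845-8628299 (Slc22a12, Slc22a19, Slc22a26, Slc22a28, Slc22a29, Slc22a30, Slc22a8 and Slc22a6) were all higher with BA, by 0.44 to 1.06. Of them, 6 passed at an unadjusted p below 0.05, where 5.67% of all rows were higher at that threshold. Slc22a19, Slc22a26 and Slc22a29 held only 13 to 76, 6 to 29 and 5 to 40 reads per library. Slc22a26, Slc22a28, Slc22a29 and Slc22a30 may share reads, so the 8 genes are not 8 separate observations. Slc22a12 lies apart from the rest of these, ending at 6543032, while the next member, Slc22a19, starts at 7673061. In the Slco1 region at chr6:141524368-142702315, which also holds Abcc9, 4 of 6 members were higher, from -0.78 to 0.85, and 1 passed.

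Marker genes of the proximal tubule, where most of these transporters act, were higher with BA as well. The list was chosen with earlier results of these data known, so its counts are not a separate test. All 20 of its genes had higher means, with a median of 0.70. At an unadjusted p below 0.05, 17 of the 20 were higher, where 5.67% of all rows were higher. Their mean log2 was 10.89, 10.99 and 11.55 in UIRI replicates 1, 2 and 3, and 11.79, 11.63 and 12 in UIRI + BA replicates 1, 2 and 3. UIRI replicate 3, the deepest library, was the highest of its group and still below every UIRI + BA library. They included Lrp2, which encodes megalin, by 0.78 ± 0.19 (limma adjusted p = 0.263), and Slc34a1, the phosphate carrier of the brush border, by 0.53 ± 0.12 (limma adjusted p = 0.260). In bulk cortex, a different number of proximal tubule cells and a different amount of RNA per cell cannot be told apart.

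Each transporter was also expressed relative to the mean log2 of these 20 genes in the same library. On that scale Slc10a2 remained higher with BA by 0.43 and Slc17a1 by 0.22, with groups that did not overlap. Slc22a6 (0.32), Slc22a12 (0.24), Slc17a3 (0.11) and Abcc2 (0.10) were higher with overlapping groups. Most members were lower on that scale, including some that were higher with BA before. Slc47a1 differed by -0.11 and Slc22a5 by -0.33 with overlapping groups, and Abcg2 by -0.24 without overlap. Subtracting a mean that was higher with BA lowers every gene, so these values show only that such members differed less than the 20 markers.

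**Figure D4:**
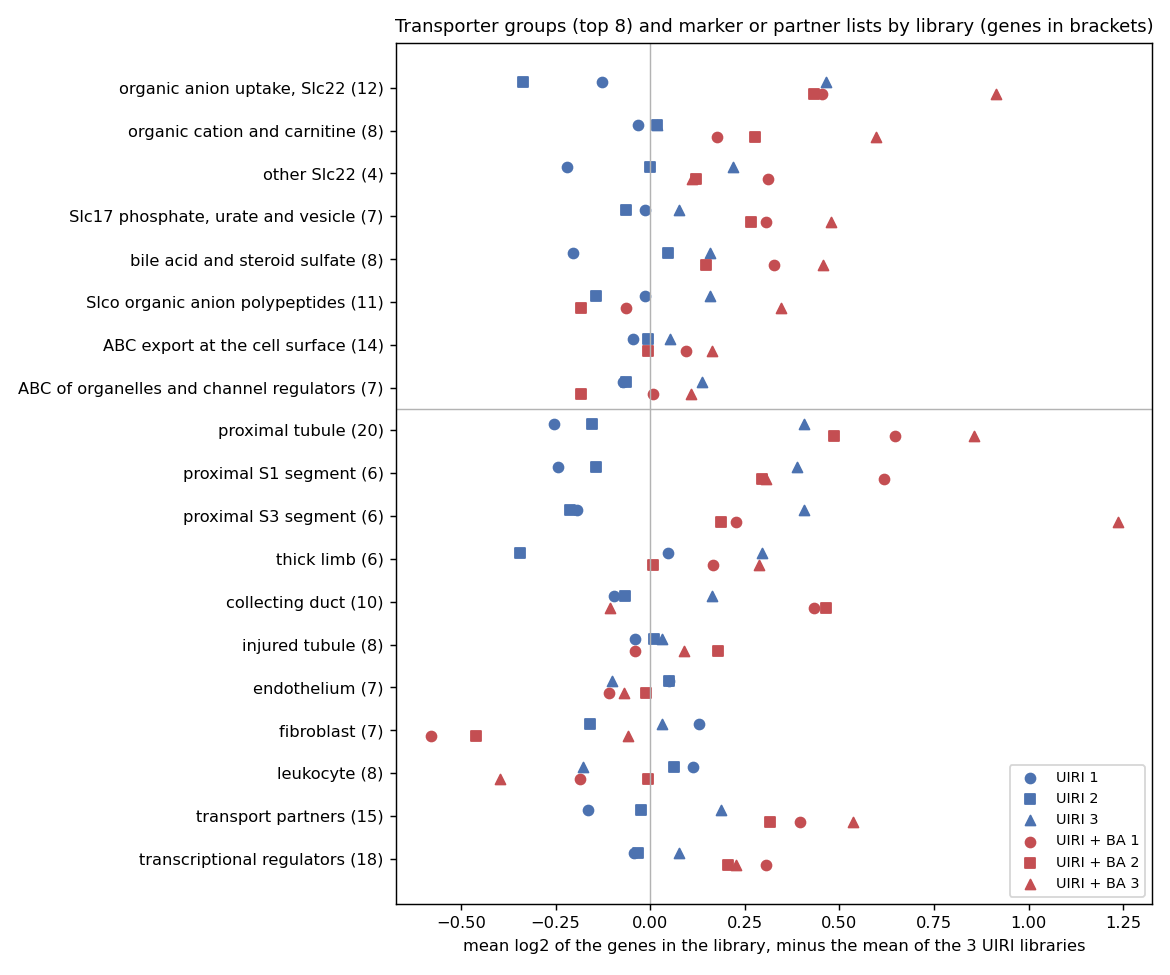
Mean log2 of the genes of each transporter role (above the grey line) and of each marker or partner list (below it) in every library, as the difference from the mean of the 3 UIRI libraries (horizontal axis, log2), with blue for UIRI, red for UIRI + BA and a symbol for each replicate. The red points lie right of all blue points for the cation and carnitine carriers, the Slc17 genes, the 20 proximal tubule markers, the transport partners and the transcriptional regulators, and overlap them in the other rows drawn.

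Other cell types differed less or in the opposite direction. Of markers of the thick limb, 1 of 6 passed at an unadjusted p below 0.05, Egf, by 0.53 (limma adjusted p = 0.342), and of the collecting duct 1 of 10, Slc26a4, by 0.53 (limma adjusted p = 0.452). None of 7 endothelial markers passed. All 7 fibroblast markers were lower, 4 at an unadjusted p below 0.05, among them Col1a1 by -0.32 (limma adjusted p = 0.291) and Col3a1 by -0.56 (limma adjusted p = 0.354), both of which encode fibrillar collagen. All 8 leukocyte markers were lower, 1 of them, Itgam, at an unadjusted p below 0.05 (log2 difference -0.32, limma adjusted p = 0.398).

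Markers of injured tubule went both ways. Lcn2, which encodes NGAL, was lower by 0.51 on the log2 scale (limma adjusted p = 0.225), with 5260, 4687 and 4507 normalized counts in the UIRI libraries and 3137, 3469 and 3539 in the UIRI + BA libraries. Havcr1, which encodes KIM-1, was higher by 0.42 (limma adjusted p = 0.263), with 14125, 16614 and 16012 in the UIRI libraries and 18944, 22559 and 21074 in the UIRI + BA libraries. Neither pair of groups overlapped. In all, 3 of the 8 injury genes were higher and 2 lower at an unadjusted p below 0.05. The part of these cell types in the transporter differences was not tested.

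Carriers and scaffolds that work beside the members were followed as a list of 15 transport partners, 1 of which, Slc27a2, is also a proximal tubule marker of the list above. Of them 14 were higher with BA, 12 at an unadjusted p below 0.05, where 5.67% of all rows were higher, and the median was 0.38. This list was also chosen with earlier results of these data known. Slc13a3 encodes the basolateral carrier that supplies the dicarboxylate exchanged by OAT1 and OAT3. It had 452, 479 and 656 normalized counts with vehicle and 859, 853 and 971 with BA, without overlap, and differed by 0.77 ± 0.14 (limma adjusted p = 0.225). Slc13a1, the apical sulfate carrier, differed by 0.62 ± 0.09 (limma adjusted p = 0.225). Scaffolds that hold apical carriers in place, Pdzk1 (0.76 ± 0.20, limma adjusted p = 0.291) and Slc9a3r1 (0.26 ± 0.07, limma adjusted p = 0.291), had groups that did not overlap.

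Transcription factors known to act on transporter genes, and genes that act with such factors (among them Ppargc1a and Keap1), were measured as a list of 18. Of these, 13 were higher and 7 passed at an unadjusted p below 0.05, all 7 in the higher direction, where 5.67% of all rows were higher. This list too was chosen with earlier results of these data known. Hnf4a, a main regulator of proximal tubule differentiation, had 3052, 3653 and 3797 normalized counts with vehicle and 5096, 4819 and 5429 with BA. The groups did not overlap, and the difference was 0.55 ± 0.10 (limma adjusted p = 0.225). Nr1h4, which encodes the bile acid receptor FXR, differed by 0.32 ± 0.08 (limma adjusted p = 0.291) and its groups did not overlap either.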

How the data were processed

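RNA was sequenced from renal cortex in 6 libraries, 3 UIRI and 3 UIRI + BA, grouped by their labels. According to the methods, the authors aligned reads with HISAT2 2.0.5, used FeatureCounts for counting and DESeq2 1.20.0 for testing; build and annotation are not given in the sources used here. The authors deposited a signal per gene, namely its read count over the size factor of the library. Of these values, 100% were whole reads within 0.01 once multiplied back. The deposited log2 fold changes, p-values, adjusted p-values and status, and the Gene Ontology and KEGG tables with their counts, ratios and p-values, hold the authors' own comparisons and were not used. No column of library values (0) went unused.

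limma 3.58.1 (R 4.3.3) was fitted to log2(value + 1) of all 19176 rows with an intensity trend and no covariate, with Benjamini-Hochberg adjustment and a threshold of 0.05. The recovered reads were tested with DESeq2 1.42.0 and with edgeR 4.0.16, and 0 rows of 17155 passed after adjustment in edgeR. Other settings were scaling to the upper quartile, quantile normalization, a mean of at least 10, a pseudocount of 0.1, a replicate block and each library left out. On simulated counts with 200 genes changed by 1.5 (log2), limma recovered 100% with 10 false calls among 19176 rows. The changed genes were drawn from well expressed ones, and no member differed by that much (highest 1.10). Dispersion, the spread between libraries beyond counting noise, was simulated as the same for every gene. Simulated libraries of a group differed only in depth and random draws. Recovery at the sizes seen in the members was not tested. Libraries held 16510720 to 38124164 reads, and 3 replicates limit the precision of most genes; an exact permutation test could not go below 0.1. Labels give each library as a separate sample, and p-values measure the spread between these samples.

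Replicate numbers did not pair the libraries (correlations of deviations -0.24, 0.30 and 0.15). Symbols alone tied rows to GENCODE M21 (GRCm38), for 97.98% of rows and 70 of 71 members. Members and lists were chosen with earlier results of these data known. Named genes were a list of well characterized transporters, any other member with an unadjusted p below 0.05 and a mean of at least 10, the 3 highest per kilobase, and up to 5 of each list by smallest p; the genes listed as low counts, the locus neighbours and Slco1a4 were added after their values were seen. Listed genes without a row (Krt13, Nr1i3, Tmlhe, Urad) were not analysed here. The labels name a column kit and a stranded library kit, and the methods name TRIzol. Some members, other listed genes and a motif are not reported here by name, but they remain in the counts.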

Additional observations from a re-analysis of the deposited data

How the results depend on the processing

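The 71 members were counted under 13 other settings, and their median log2 difference stayed between 0.11 and 0.27. With single libraries left out, the 22 that were higher at an unadjusted p below 0.05 ranged from 14 (UIRI + BA replicate 3 omitted) to 25 (UIRI replicate 3 omitted). The 2 that were lower became 4 with quantile normalization, 1 with DESeq2, and 0 (UIRI replicate 1 omitted) to 3 with single libraries left out. After adjustment, the 0 higher became 10 with DESeq2 and 17 without UIRI replicate 3, and stayed at 0 with any of the other 5 left out. With the replicate block, 2 members were higher after adjustment, 1 was lower at an unadjusted p below 0.05, and 6 rows of the whole table passed after adjustment. Upper quartile scaling changed the split of all rows at an unadjusted p below 0.05 from 1087 higher and 884 lower to 942 and 1046, and omitting UIRI + BA replicate 3 changed it to 778 and 834. The cause of these shifts was not tested.

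Of 43 named members, 7 changed sign under some setting, none past the adjusted threshold. With single libraries left out, Slc22a7 ranged from -0.60 to 0.21 (0.19 when UIRI + BA replicate 1 was omitted), Slc22a17 from -0.04 to 0.13 and Slc10a1 from -0.49 to 0.36 (also negative were -0.19 and -0.05, for UIRI replicates 1 and 3). Omitting UIRI + BA replicate 3 gave the lowest values of Slc22a13 (-0.38 to 0.71), Slco1a1 (-0.02 to 0.99) and Slco4c1 (-0.46 to 0.63, and -0.31 when UIRI replicate 2 was omitted). Slco2b1 ranged from -0.14 to 0.09 (-0.06 when UIRI + BA replicate 2 was omitted), and was -0.03 with quantile normalization, -0.02 with upper quartile scaling and -0.01 with DESeq2 and edgeR. Slc10a1 was -0.02 with upper quartile scaling and -0.01 with a pseudocount of 0.1. Depth limits genes with few reads, and 3 libraries in each group limit the rest.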

Other observations

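Hepatocyte genes, which could be present through blood or other tissue, were measured for 7 listed genes, of which 5 were higher with BA and 1 passed at an unadjusted p below 0.05. That gene, Apoc3, had 12.5, 5.62 and 11.5 normalized counts in the UIRI libraries and 20.0, 25.8 and 20.9 in the UIRI + BA libraries, and Alb differed by -0.07 (limma adjusted p = 0.942). Of 6 markers of the S1 segment, the first part of the proximal tubule, 5 were higher, 4 at an unadjusted p below 0.05, and of 6 of the S3 segment 5 were higher, 3 at that threshold. These counts are not separate from those above. Slc5a2, Slc5a12, Slc4a4 and Gatm of S1 and Slc7a13 of S3 are also in the proximal tubule list, and Slc5a8 of S3 is also a transport partner. Slc2a2, which encodes the glucose carrier GLUT2 of S1, differed by 0.43 (limma adjusted p = 0.284), and Slc7a13, a carrier of the S3 segment, by 1.06 (limma adjusted p = 0.413), from 0.58 to 1.39 with single libraries left out.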
